A study of Mus musculus with 4 samples.

Results

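The accessible DNA at 9 genes that mark macrophages was examined in mouse fetal liver: Adgre1, Csf1r, Vcam1, C1qa, C1qb, C1qc, Mertk, Timd4 and Maf. These are 9 of the 21774 protein-coding genes of the RefSeq mouse table used here. A called peak was counted for a gene when its summit lay inside the gene, or within 100 kb of it with this gene as the nearest gene end. Under this rule the 9 genes held 14 of the 55290 regions obtained by merging the peaks of all libraries. The measurement is ATAC-seq, in which a transposase inserts adapters into open DNA, so that a pile of sequenced fragments marks an accessible site. Cells came from fetal livers at embryonic day 14.5, with no sorting by cell type named in the labels, and 4 libraries were made: 2 from Hemgn knockout (KO) embryos and 2 from wild-type (WT) embryos. The product of Hemgn, hemogen, is found in the nuclei of haematopoietic cells. The labels do not give the kind of KO allele, the strain, or whether replicates are separate embryos, so the spread between libraries of a genotype may be technical.

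Fetal liver macrophages sit at the centre of erythroblastic islands, where red cell precursors attach to them, mature and hand over their expelled nuclei. Csf1r is the receptor for the growth factor on which most tissue macrophages depend, and Adgre1 encodes F4/80, the surface protein used to recognise mouse macrophages. Vcam1 is the adhesion molecule that binds integrin alpha 4 beta 1 on erythroblasts. Mertk and Timd4 are receptors for dying cells and shed nuclei that expose phosphatidylserine, C1qa, C1qb and C1qc encode the chains of complement C1q, and Maf encodes a transcription factor of macrophages. Vcam1, Mertk and Maf are also used by other cells, among them endothelium, epithelia and lymphocytes. In bulk tissue, fewer macrophages and less open DNA per macrophage cannot be told apart.

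Promoter sequences, from RefSeq on GRCm38.p6, were found for 4 of the 9 genes and are shown because they range from a promoter with a peak in every library to promoters with none. Each is the 250 bases before the gene's start, 5′ to 3′ on the gene's strand. Mertk (chr2:128698665-128698914, plus strand) had a peak over this window in all 4 libraries. C1qb (chr4:136886201-136886450, minus strand) had one in WT replicate 1 alone. C1qc (chr4:136892915-136893164, minus strand) and Timd4 (chr11:46810549-46810798, plus strand) had none. Capitals mark matches to the 7 motifs described after them.
Mertk: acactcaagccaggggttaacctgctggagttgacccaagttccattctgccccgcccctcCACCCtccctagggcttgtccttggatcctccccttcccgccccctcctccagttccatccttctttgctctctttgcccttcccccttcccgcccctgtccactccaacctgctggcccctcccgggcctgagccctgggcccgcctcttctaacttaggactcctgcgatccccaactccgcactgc
C1qb: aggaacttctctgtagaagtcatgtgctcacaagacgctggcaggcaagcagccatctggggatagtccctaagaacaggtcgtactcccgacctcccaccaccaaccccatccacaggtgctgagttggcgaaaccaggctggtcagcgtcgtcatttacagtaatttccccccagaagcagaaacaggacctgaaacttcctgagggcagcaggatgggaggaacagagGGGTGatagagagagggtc
C1qc: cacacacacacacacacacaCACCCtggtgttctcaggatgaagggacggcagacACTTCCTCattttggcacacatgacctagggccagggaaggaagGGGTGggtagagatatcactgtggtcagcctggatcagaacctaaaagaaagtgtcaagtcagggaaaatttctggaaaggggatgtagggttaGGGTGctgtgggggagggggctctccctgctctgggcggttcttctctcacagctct
Timd4: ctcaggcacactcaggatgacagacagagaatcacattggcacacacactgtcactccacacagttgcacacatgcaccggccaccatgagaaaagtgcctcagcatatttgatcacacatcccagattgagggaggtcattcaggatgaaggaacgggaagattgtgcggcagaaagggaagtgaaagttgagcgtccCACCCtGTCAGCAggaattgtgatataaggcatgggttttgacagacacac

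The motifs were searched as exact letters on both strands. GAGGAAGT, a site of the macrophage factor PU.1, was found once, in C1qc, and is present in 2.44% of all promoters of the table over the same 250 bases. TGCTGAC, part of the sites of MAF factors, was found once, in Timd4, against 3.81% of all promoters. CACCC, bound by KLF factors, was in all 4 promoters, with 3 copies in C1qc and 1 in each other, and is in 52.0% of all promoters. A longer PU.1 site that contains GAGGAAGT was in none of the 4 and is in 0.323% of all promoters. The site of erythroid GATA factors, AGATAA, was in none and is in 9.99% of all promoters. The AP-1 site TGANTCA and the C/EBP site TTGCNNAA were also in none, and are in 6.75% and 9.56% of all promoters. The GC content was 63.6% for Mertk, 55.2% for C1qb, 54.0% for C1qc and 50% for Timd4, so the promoter that was open in every library was also the richest in GC. A letter match is a description and not a bound site.

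The libraries were not equally deep. Peak lists held 35426 and 43018 peaks on the chromosomes in KO replicates 1 and 2, and 47858 and 34181 in WT replicates 1 and 2. The commonest background against which peaks were called, recovered from each list, was 2.49 and 3.80 fragments in the KO libraries and 5.67 and 2.29 in the WT libraries. Among peaks with a −log10 p under 60, it applied to 32.7% and 35.3% in KO and to 45.1% and 30.2% in WT. The rest of these peaks were called against other values. KO replicate 2 and WT replicate 1 were thus the deeper library of each genotype, if all were called with like settings. The lowest fold that could be called at the commonest background was 2.87 and 2.71 in KO, and 2.40 and 3.04 in WT. Over all backgrounds, the lowest folds in the lists were 1.44 and 1.45 in KO, and 1.39 and 1.52 in WT. Peak height is given as the fold over the library's background at the summit, the authors' value, and as the percentile of that fold within the library's own list, where 100 is the strongest. Erythroid genes chosen as tissue markers had a gene-end peak in all 4 libraries at 8 of 10 genes, and hepatocyte genes at 4 of 10. Over all protein-coding genes the share was 51.1%.

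Peaks at the macrophage genes were few. KO replicates 1 and 2 had 7 and 8 peaks over the 9 genes, and WT replicates 1 and 2 had 12 and 6. The means were 7.5 ± 0.71 in KO and 9.0 ± 4.24 in WT (SD, n = 2 each), and the range of the WT libraries enclosed both KO libraries. Of the 14 regions, 3 were present in all 4 libraries (background 49.7% of all regions), 1 in 3 libraries, 6 in 2 libraries and 4 in 1 library (background 25% for regions in 1 library). The 3 regions shared by every library lay at Csf1r, Mertk and Maf. KO-only regions, with a peak in both KO libraries and in no WT library, numbered 0 of 14, where 1.41% of all regions were KO-only. WT-only regions numbered 1 of 14, at Csf1r, where 2.2% of all regions were WT-only. Counts this small do not show how the shares relate to the background.

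**Figure D1:**
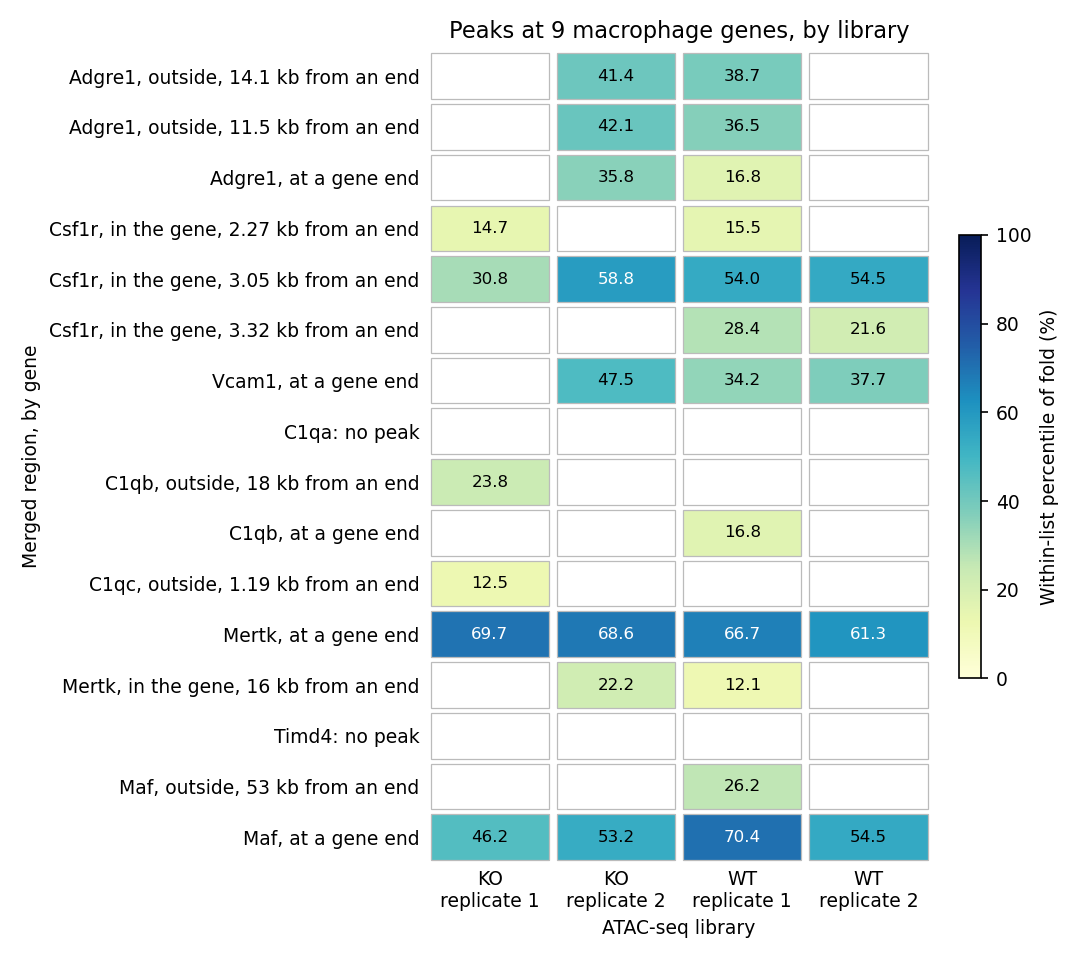
Each row is a merged region at a macrophage gene and each column a library; a filled cell is a called peak, with its within-list percentile of fold printed and coloured from 0 to 100%, and an empty cell has no called peak. The Mertk and Maf gene ends and 1 Csf1r region are filled in all 4 columns, the 3 Adgre1 regions only in KO replicate 2 and WT replicate 1, and C1qa and Timd4 in none.

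A gene-end peak means a summit assigned to the gene and within 1 kb of either of its ends. Such a peak was found in all 4 libraries at Mertk and Maf. Adgre1, Vcam1 and C1qb had one in 2, 3 and 1 libraries, and Csf1r, C1qa, C1qc and Timd4 had one in none. Over all protein-coding genes, 51.1% had a gene-end peak in every library and 39.5% in none. By library, 2 and 4 of the 9 genes had such a peak in KO replicates 1 and 2, and 5 and 3 in WT replicates 1 and 2. The same shares over all genes were 55.3% and 56.5% in KO and 57.5% and 53.9% in WT. No peak at all was assigned to C1qa and Timd4, which 25.2% of all genes share. For none of the 9 genes did the number of peaks separate the genotypes, where 2.97% of all genes had fewer peaks in both KO libraries than in both WT libraries and 1.72% had more.

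Adgre1 (F4/80) had no peak in KO replicate 1, 3 in KO replicate 2, 3 in WT replicate 1 and none in WT replicate 2. The genotypes therefore had the same values, and the presence of peaks went with the deeper library of each. One region stood at the end of the gene with the lower coordinate (chr17:57358507-57358786), with summits 43 and 2 bp from that end. Its fold over background was 4.38 in KO replicate 2 and 3.15 in WT replicate 1, at the 35.8 and 16.8 percentiles of those lists. The other regions lay outside the gene on the same side, 11.5 kb (chr17:57346835-57347248) and 14.1 to 14.2 kb (chr17:57344176-57344598) from that end.

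Neither of these outer Adgre1 regions was among the weakest peaks. At 11.5 kb the percentile was 42.1 in KO replicate 2 and 36.5 in WT replicate 1, with folds of 4.80 and 4.20. At 14 kb it was 41.4 in KO replicate 2 and 38.7 in WT replicate 1, with folds of 4.78 and 4.35. These folds are above the lowest fold that could be called at the commonest background of the shallower libraries, 2.87 in KO replicate 1 and 3.04 in WT replicate 2. A fold in a deeper library does not give the fold that a shallower library would have had there. Many peaks were also called against other backgrounds. The part of depth in the missing peaks was not tested. Summits of the deeper libraries were 70 and 98 bp apart at the outer regions. Across the genome, 3723 regions in both deeper libraries had their lower percentile between 35 and 45; 63.0% of them had a peak in both shallower libraries and 11.9% in neither.

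Together with a region inside Mertk, 4 of the 14 regions were found in KO replicate 2 and WT replicate 1 and in no other library, a pattern seen in 7.22% of all regions. How far depth sets this pattern was not tested. Further along the same side, the regions nearest to Adgre1 were assigned to Vav1, a signalling gene of blood cells. One of them, 22.7 kb from Adgre1, had percentiles of 62.5 and 66.3 in KO replicates 1 and 2 and 62.2 in WT replicate 1, with no peak in WT replicate 2.

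**Figure D2:**
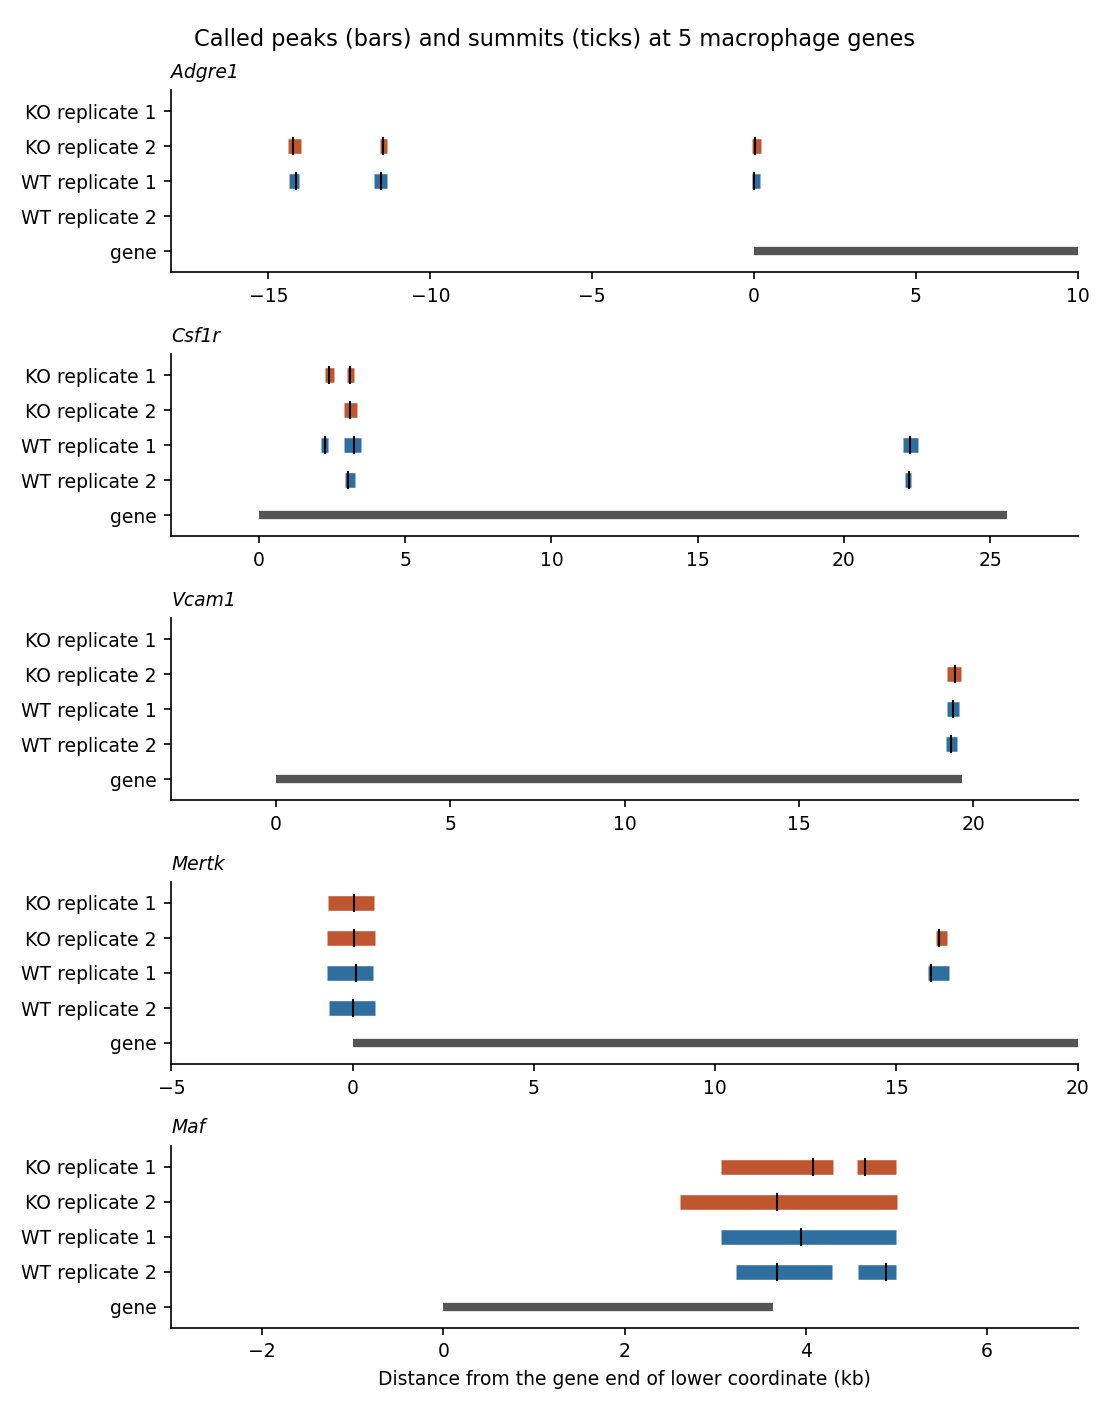
Called peaks (bars) and summits (black ticks) of each library are drawn against the distance, in kb, from the gene end of lower coordinate; grey bars are genes, and orange is KO and blue WT. The same positions recur between libraries, and the Csf1r peak near 22 kb appears in WT libraries alone.

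Csf1r, the receptor for colony-stimulating factor 1, had 2 and 1 peaks in KO replicates 1 and 2 and 3 and 2 peaks in WT replicates 1 and 2. The KO minus WT difference of means was -1.0, and the groups met at 2 peaks (exact two-sided permutation p = 0.667; the smallest p that 2 against 2 libraries allow is 0.333). All peaks assigned to Csf1r lay inside the gene and none within 1 kb of an end. A region just outside its end of higher coordinate (chr18:61131492-61132126) was assigned to the neighbouring gene Hmgxb3 and is not counted here. Its nearest summit was 0.416 kb from Csf1r. It had a peak in KO replicates 1 and 2 and in WT replicate 1, and none in WT replicate 2. Csf1r is known for a strong enhancer within an intron; the gene table used here gives no exons, so which peak covers it was not determined.

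The region shared by all libraries (chr18:61108484-61109041) had summits 3.05 to 3.24 kb from the end of lower coordinate. Its percentiles were 30.8 and 58.8 in KO replicates 1 and 2 and 54.0 and 54.5 in WT replicates 1 and 2. The low value was that of KO replicate 1 alone, and KO replicate 2 was above both WT libraries, so the groups overlapped. Means were 44.8 ± 19.8 in KO and 54.3 ± 0.36 in WT (SD, n = 2 each), and without KO replicate 1 the difference was 4.52 percentile points rather than -9.46. A smaller region beside it (chr18:61107702-61108149) had a peak in KO replicate 1, at the 14.7 percentile, and in WT replicate 1, at the 15.5 percentile.

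The WT-only region of Csf1r (chr18:61127596-61128110) lay inside the gene, 3.32 to 3.34 kb from its end of higher coordinate. Neither KO library had a peak there, and the percentiles were 28.4 in WT replicate 1 and 21.6 in WT replicate 2, with folds of 3.75 and 4.15. Both folds are above the lowest fold that could be called at the commonest background of the KO libraries. A fold in a WT library does not give the fold that a KO library would have had there. The part of depth in the missing KO peaks was not tested. The summits of the WT libraries were 16 bp apart. With lists of equal length by fold, the region was no longer WT-only. With lists of equal length by q it stayed WT-only.

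Vcam1, which anchors erythroblasts to the macrophage, had 1 region, just inside its end of higher coordinate (chr3:116129255-116129656), with summits 179 to 295 bp from that end. KO replicate 1 had no peak there and KO replicate 2 had one at the 47.5 percentile, against 34.2 and 37.7 in WT replicates 1 and 2. The highest percentile and the only missing peak were both in KO libraries. Its folds were 5.21 in KO replicate 2, and 4.05 and 5.17 in WT replicates 1 and 2. The lowest fold that could be called at the commonest background of KO replicate 1 was 2.87. The folds of other libraries do not give the fold that KO replicate 1 would have had. Why that library had no peak was not tested.

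Receptors for dying cells differed from each other. Mertk had its strongest region at the start of the gene (chr2:128698198-128699520), with percentiles of 69.7 and 68.6 in KO replicates 1 and 2 and 66.7 and 61.3 in WT replicates 1 and 2. Both KO values were above both WT values, with means of 69.1 ± 0.83 in KO and 64.0 ± 3.87 in WT (SD, n = 2 each). The difference of 5.14 points was smaller than the gap of 5.48 between the WT libraries, and 38.6% of all regions shared by 4 libraries had a difference at least as large. Peaks were 1260 and 1314 bp wide in KO and 1288 and 1245 bp wide in WT, with summits 51 and 43 bp after the start in KO and 97 and 3 bp after it in WT.

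A second Mertk region inside the gene (chr2:128714777-128715354), 16.0 to 16.2 kb from the start, had a peak in KO replicate 2 at the 22.2 percentile and in WT replicate 1 at the 12.1 percentile. Timd4 had no peak in any library. The nearest summit was 103.7 kb from it, at the end of Timd2, a gene of the same receptor family. That Timd2 region (chr11:46706888-46707178) was itself WT-only, with percentiles of 20.1 and 29.0 in WT replicates 1 and 2.

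The complement C1q genes lie side by side on chromosome 4 and had 3 regions between them, each in a single library. C1qb had a peak 18.0 kb beyond its lower end in KO replicate 1 (chr4:136861981-136862216, 23.8 percentile). It had another 197 bp before its start in WT replicate 1 (chr4:136886244-136886457, 16.8 percentile), within the sequence printed above. C1qc had a peak in KO replicate 1 (chr4:136894074-136894360, 12.5 percentile), 1.19 kb outside its end of higher coordinate and 1.79 kb from C1qa, the nearest summit to that gene. No position recurred between libraries. Regions shared by all 4 libraries lay farther out, at Ephb2, Epha8 and Zbtb40, and the closest to C1qa was the Epha8 region 31.7 kb away.

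Maf had a broad region over its end of higher coordinate (chr8:115705869-115708258, 2390 bp wide). The highest peak there was at the 46.2 and 53.2 percentiles in KO replicates 1 and 2 and at the 70.4 and 54.5 percentiles in WT replicates 1 and 2. Both KO values were below both WT values, with means of 49.7 ± 4.93 in KO and 62.5 ± 11.3 in WT (SD, n = 2 each). The difference was -12.7 percentile points, less than the gap of 16.0 between the WT libraries, and 11.9% of all shared regions had a difference at least as large. By percentile of −log10 q the groups overlapped, with 56.2 and 61.8 in KO replicates 1 and 2 and 69.0 and 56.7 in WT replicates 1 and 2, a difference of -3.84. By fold, without WT replicate 1 it was -4.73. The region was called as 2 peaks in KO replicate 1 and in WT replicate 2, the shallower libraries, and as 1 peak in the other two. A further region 53.0 kb from the gene (chr8:115650144-115650523) had a peak in WT replicate 1 alone, at the 26.2 percentile.

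Of the 27473 regions shared by all 4 libraries, 13.6% had a lower percentile in both KO libraries than in both WT libraries and 9.98% a higher one. By fold, the Maf and Mertk regions are 1 of each kind among the 3 shared regions of the macrophage genes. The middle 90% of all shared regions had KO minus WT differences between -14.8 and 12.3 percentile points, which includes all 3. The median gap between libraries of a genotype was 5.07 points in KO and 8.65 in WT.

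**Figure D3:**
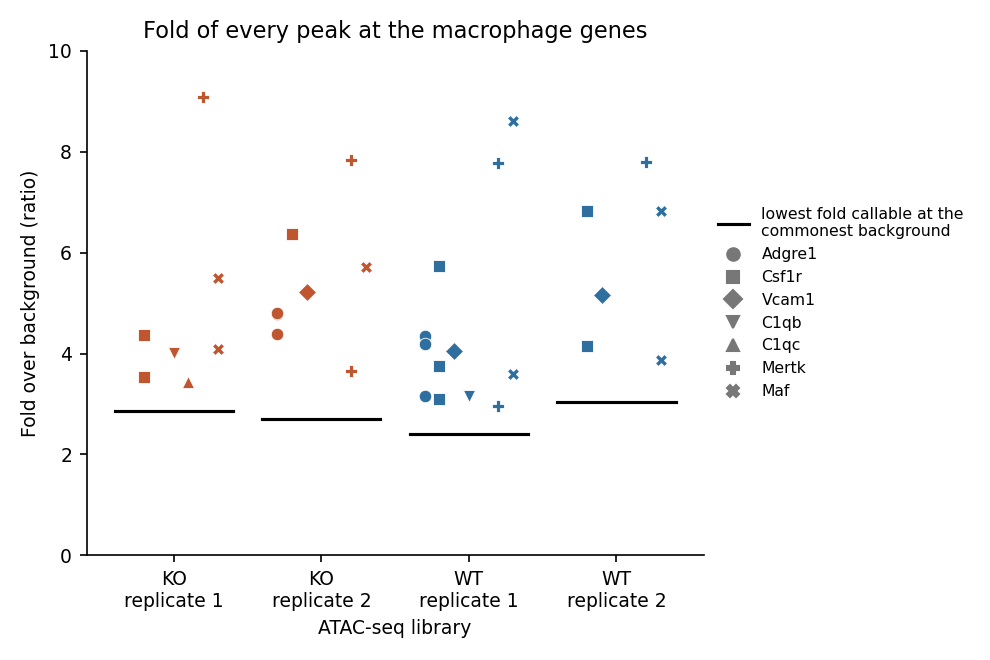
The fold over background of every called peak at the macrophage genes is plotted by library, orange for KO and blue for WT, with 1 marker shape per gene; black lines are the lowest fold that could be called at the library's commonest background. Mertk has the highest fold in 3 libraries and Maf in WT replicate 1, and the Adgre1 circles appear in KO replicate 2 and WT replicate 1 alone. Each line applies to its own library, because folds over different backgrounds are not on the same scale.

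A wider list of 40 macrophage genes had 146 regions, of which 63 (43.2%) were present in all 4 libraries, beside 49.7% of all regions. Every library had a gene-end peak at 16 of the 40 genes, and no library had one at 14. Over all protein-coding genes these shares were 51.1% and 39.5%. No peak at all was assigned to 6 of the 40 genes, where 25.2% of all genes had none. They are named after their values were seen: Spic, Cd163, Marco, Cd5l, Cd68 and Itgax. The list held 2 KO-only and 3 WT-only regions of 146, near the shares of 1.41% and 2.2% over all regions. The KO-only ones were at Aif1, a calcium-binding protein gene of macrophages (chr17:35172419-35172752; 25.8 and 5.42 percentiles in KO replicates 1 and 2), and outside the integrin gene Itgam (chr7:128042440-128042967; 7.41 and 15.5). Aif1 had 2 and 3 peaks in the KO libraries and 1 and 1 in the WT libraries, and was the 1 gene of 40 with more peaks in both KO libraries (1.72% of all genes).

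The WT-only regions of the wider list were at Tyro3, a receptor related to Mertk (chr2:119798306-119798598; 3.15 and 7.32 percentiles in WT replicates 1 and 2), and at Timd2, which had the one near Timd4 and another 8.03 kb inside the gene (chr11:46698882-46699188; 26.2 and 29.0 in the same order). Timd2 had 0 and 2 peaks in the KO libraries and 3 and 3 in the WT libraries, and was the 1 gene of 40 with fewer peaks in both KO libraries (2.97% of all genes). These genes were not tested as a list, and single genes cannot pass a test with 2 against 2 libraries.

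Of 10 ligands and partners of the 9 genes, 9 were matched in the gene table, and 7 of these had a gene-end peak in all 4 libraries. Over all protein-coding genes the share was 51.1%. Among the 7 are Gas6 and Pros1, the bridging ligands of Mertk, and Itga4 and Itgb1, the integrin chains that bind VCAM1. Itga4 had 4 and 7 peaks in KO replicates 1 and 2 and 9 and 8 in WT replicates 1 and 2, so the genotypes did not overlap (exact two-sided permutation p = 0.333). It was the 1 gene of the 9 matched with fewer peaks in both KO libraries, where 2.97% of all genes had fewer. Of the 34 regions of the matched genes, 2 were WT-only, where 2.2% of all regions were. Itga4 held both, 10.9 kb (chr2:79244188-79244593; 59.2 and 18.6 percentiles in WT replicates 1 and 2) and 46.3 kb (chr2:79379337-79379606; 29.1 and 13.1) outside the gene, beside 4 regions shared by every library. The lowest number was in KO replicate 1 and the highest in WT replicate 1, the deepest library, while WT replicate 2, the shallowest, had 8. The part of depth in the difference was not tested.

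**Figure D4:**
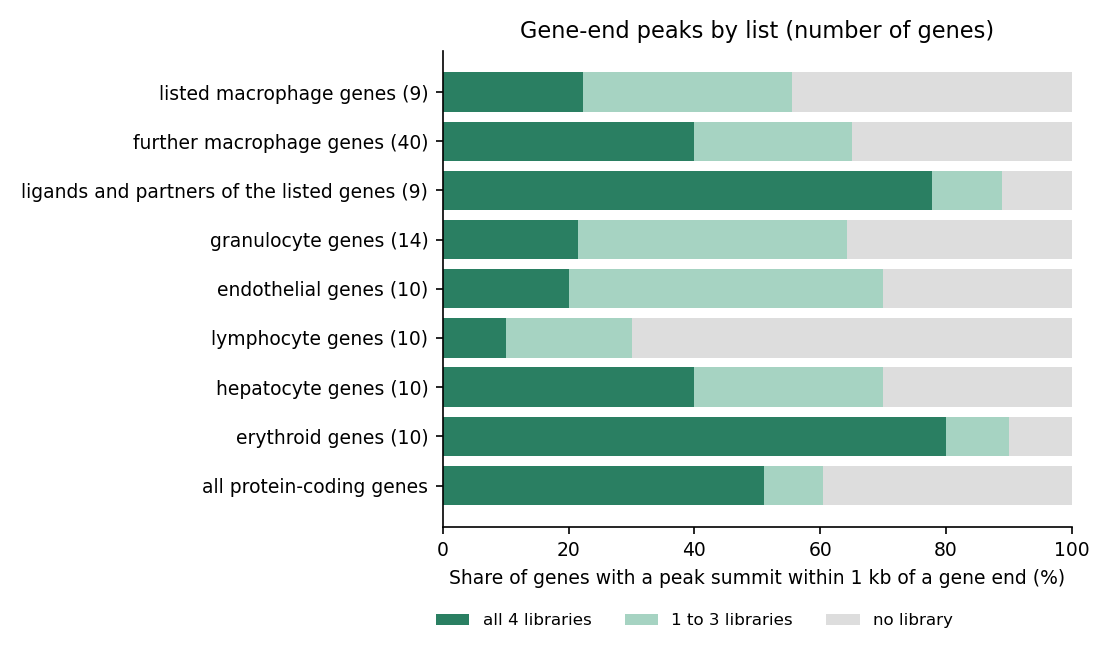
Bars give the share of genes (%) with a gene-end peak in all 4 libraries, in 1 to 3 libraries and in no library. A gene-end peak is a summit assigned to the gene and within 1 kb of an end. There is a bar for each gene list, with its number of genes in brackets, and for all protein-coding genes. The 9 listed macrophage genes are at 22.2% for all 4 libraries, beside 21.4% for granulocyte genes and 77.8% for the ligands and partners. All protein-coding genes are at 51.1%.

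Beside other blood and liver lists, the 9 macrophage genes had 2 of 9 genes with a gene-end peak in every library. Granulocyte genes had 3 of 14, endothelial genes 2 of 10, hepatocyte genes 4 of 10 and lymphocyte genes 1 of 10. Over all protein-coding genes the share was 51.1%. Regions present in all 4 libraries were 3 of 14 (21.4%) for the macrophage genes, 11 of 34 (32.4%) for granulocyte genes, 15 of 46 (32.6%) for endothelial genes, 13 of 51 (25.5%) for hepatocyte genes, 13 of 26 for lymphocyte genes and 44 of 92 (47.8%) for erythroid genes, with 49.7% over all regions. WT-only regions numbered 6 of the 51 at hepatocyte genes, 4 of the 92 at erythroid genes, 2 of the 34 at granulocyte genes, 1 of the 26 at lymphocyte genes and 0 of the 46 at endothelial genes. KO-only regions numbered 0, 1, 0, 2 and 1 in the same lists. Over all regions, 2.2% were WT-only and 1.41% KO-only. Peak numbers were lower in both KO libraries at 4 of 10 hepatocyte, 2 of 10 erythroid and 2 of 14 granulocyte genes. They were higher in both KO libraries at 2 of 14 granulocyte and 2 of 10 lymphocyte genes, and endothelial genes had 0 of either kind. Over all genes, 2.97% had fewer and 1.72% more. As an example, Alb, which encodes serum albumin, had 1 and 3 peaks in KO and 8 and 5 in WT. This was the largest difference among the 10 hepatocyte genes. Hnf4a, named after its values were seen, went the other way, with 8 and 11 in KO and 10 and 7 in WT. The part of such differences between cell types in the values at the macrophage genes was not tested. The lists were small and these shares were not tested against each other. They were also chosen with earlier results of these data known, so a count above the share over all genes or regions is not a finding.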

How the data were processed

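ATAC-seq peaks were deposited as 1 list per library, none pooled (2 KO, 2 WT). Peak names inside the lists carry replicate numbers 3 and 4 where the labels have 1 and 2, in both genotypes; the labels' numbers are used. The submitters' processing notes name MACS2 2.2.7.1, Picard 2.21.4, SAMtools 1.9 and Bowtie2 2.3.5. The role and settings of each tool, and the genome build, were not given in the sources used here. In each list, the deposited fold is the authors' ratio of fragments at a summit to the background of the same library. It was read here with 1 added to both terms, so folds over different backgrounds are not on the same scale. The deposited −log10 p and −log10 q belong to single peaks, and the deposited score is 10 times the −log10 q. Folds were ranked within each list, as percentiles (100 is strongest).

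Only peaks on the autosomes, X and Y entered. Overlap by at least 1 bp merged peaks into regions, and a region's percentile in a library is that of its highest peak there. The gene table is GRCm38.p6; 27.8% to 35.3% of summits lay within 1 kb of its gene ends, against 6.67% to 7.31% after shifts of 5, 20 and 50 kb. Positions are 1-based and come from the lists. Backgrounds were solved from fold and −log10 p with Poisson probabilities for peaks with a −log10 p under 60, and are in whole-fragment units. Assignment, merging and this solution were tested on simulated data. Python 3.11.15, pandas 2.3.3 and SciPy 1.17.1 were used.

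Peak numbers of single genes were tested between genotypes by exact two-sided permutation of the libraries; regions and percentiles have no test. All 9 genes are named with every peak number, and their regions at gene ends, in all 4 libraries or exclusive to a genotype are given with coordinates; of further lists, a gene is named only if it has an exclusive region or separated peak numbers, and such genes of the blood and liver lists are mostly given as counts; exceptions are said to be chosen after their values were seen or stand as examples. The members and lists were chosen with earlier results of these data known.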

Additional observations from a re-analysis of the deposited data

How the results depend on the processing

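No gene passed its test in any setting, and with 2 libraries a genotype none could. WT-only regions numbered 1, at Csf1r, and 0 with lists of equal length by fold or with the upper 50% of each list. With lists of equal length by q the Csf1r region stayed WT-only. At a fold of at least 6 the single WT-only region was the Maf region instead, since its KO folds were under 6. Regions in all libraries numbered 3, but 1 in the upper 50% of each list and 1 at a fold of at least 6; genes with a gene-end peak in all libraries numbered 2, but 1 and 1 in the same settings. Leaving out 1 library gave 0 to 2 KO-only regions (2, at C1qb and C1qc, without KO replicate 2), 1 to 3 WT-only regions (2 without KO replicate 2, 3 without WT replicate 2), 3 to 4 shared regions and 2 to 3 genes. With 1 library left out, a region needs fewer libraries to count as exclusive or shared. The shares over all regions given above, from 4 libraries, therefore do not apply to these counts. The KO minus WT difference in peaks over the 9 genes was -1.5, and between -4.5 and 1.5 without 1 library: 1.5 without WT replicate 1 and -4.5 without WT replicate 2. It was 1.5 with lists of equal length by fold and 1.0 by q. Percentile differences without 1 library ranged from -23.4 to 4.52 at Csf1r, 2.40 to 7.88 at Mertk and -20.7 to -4.73 at Maf. The causes were not tested. Other overlaps and distances gave the same numbers of exclusive and shared regions within 1.5 times.

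The labels do not say that replicate numbers pair the libraries, and peak names number them 3 and 4 instead of 1 and 2. In the replicate block, Csf1r had a difference of -1.0 in both pairs (exact sign-flip p = 0.5, the smallest 2 pairs allow). Deviations of same-numbered libraries from their genotype means correlated at -0.202 over 27473 shared regions; with numbers crossed, a pairing chosen after seeing the data, 0 genes passed, as with the block.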
